A study of Mus musculus with 2 samples.

Results

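The miR-29 family of the mouse is encoded by 4 microRNA genes, Mir29a, Mir29b-1, Mir29b-2 and Mir29c, which were picked by their symbols in the GENCODE M21 annotation from the 2202 microRNA genes counted. All 4 were detected, meaning at least 10 counts in each library, as were 316 of the 2202 genes. Most of the family's gene counts were of Mir29a, which held 94.6% ± 0.381 of them (SD, n = 2 libraries). Mir29c was a distant second, and both miR-29b loci were counted at far lower levels. Reads that map to several places enter no gene count, so these are no shares of mature miR-29.

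The series holds 1 group, heart tissue of female B6CASTF1/J mice aged 18 to 20 months, hybrids whose parents are C57BL/6J and CAST/EiJ, with no treatment or engineered allele in the labels. It was measured by microRNA-seq in 2 libraries made from total RNA, numbered by the labels as biological replicates 1 and 2. The libraries have separate tissue records but share a single donor record, so each SD measures the spread between these libraries, and part of it may be technical. With 1 group there is no contrast between conditions, and the questions are how much each family member contributed and how far the libraries differed.

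MicroRNAs are cut from a hairpin precursor, whose arms give a 5p and a 3p strand, and the mature strand guides the silencing complex to messenger RNAs that match its seed near the 5′ end. miR-29 is known for binding the messages of collagens, elastin and fibrillin in fibroblasts, and a fall of miR-29 has been tied to fibrosis after cardiac injury. The family is also known to target enzymes of DNA methylation and demethylation. These libraries contain no measure of fibrosis or of any messenger RNA, so the word antifibrotic is background and not a property tested here.

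The mature 3p strands are shown because their shared seed defines the family and because their few differing bases decide which reads can be told apart. Sequences are from RefSeq (GRCm38.p6), written 5′ to 3′, with bases 2 to 8, the seed, in capitals.
miR-29a-3p: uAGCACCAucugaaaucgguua
miR-29b-3p: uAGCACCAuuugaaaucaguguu
miR-29c-3p: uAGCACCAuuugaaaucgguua
All share the seed AGCACCA. Counted from the 5′ end, miR-29a-3p and miR-29c-3p differ by C10U and are equal at 21 of 22 positions. Between miR-29a-3p and miR-29b-3p the differences are C10U, G18A, U21G and A22U. Between miR-29b-3p and miR-29c-3p they are A18G, G21U and U22A.

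Both miR-29b loci encode the same miR-29b-3p, and their 5p strands differ. The precursors are printed to show how long the stretch is that the loci have in common, given in capitals.
Mir29b-1: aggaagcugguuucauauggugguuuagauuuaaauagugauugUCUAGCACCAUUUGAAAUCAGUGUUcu
Mir29b-2: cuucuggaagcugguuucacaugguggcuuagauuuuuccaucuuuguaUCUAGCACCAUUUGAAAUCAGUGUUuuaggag
The shared stretch is 25 nt long and contains the whole 23 nt of miR-29b-3p. The 5p strands, printed with bases 2 to 8 in capitals, start at positions that are 1 nt apart and are equal at 19 of 21 aligned bases.
miR-29b-1-5p: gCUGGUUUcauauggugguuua
miR-29b-2-5p: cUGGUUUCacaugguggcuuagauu
Of the 20-nt windows of each precursor, 43 of 52 in Mir29b-1 and 56 of 62 in Mir29b-2 occurred in no other of the 2202 annotated hairpins. In Mir29a this held for 69 of 69 windows, and its longest stretch in common with any other hairpin was 14 nt. In Mir29c it held for 66 of 69, the exception being a stretch of 22 nt shared with Mir29b-1. The comparison covered annotated hairpins and not the rest of the genome. In the deposited tables a read that maps to several places enters no gene count, so the counts of Mir29b-1 and Mir29b-2 are uncertain and are no measure of mature miR-29b. A gene count also sums both arms of a hairpin.

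The genes lie in pairs. Mir29a (ENSMUSG00000065610.1, chr6:31062660-31062747) and Mir29b-1 (ENSMUSG00000065604.2, chr6:31063023-31063093) lie on the minus strand of mm10, 275 nt apart. Mir29b-2 (ENSMUSG00000065412.3, chr1:195037040-195037120) and Mir29c (ENSMUSG00000065548.1, chr1:195037547-195037634) lie on the plus strand, 426 nt apart. Mir29a overlaps no other annotated transcript, and Mir29b-1 overlaps the long non-coding RNA Gm27019 by 2 nt on the same strand. Mir29b-2 and Mir29c both lie within exon 3 of 3 of A330023F24Rik-204, a retained-intron transcript of a non-coding gene on the same strand. They also lie opposite the last exon, 11 of 11, of Cd46-203, in the 3′ UTR of this gene of a complement regulator. No member had an antisense count in either library.

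Replicate 1 held 9362013 reads, of which 3383676 were sense counts of microRNA genes, and replicate 2 held 10549508 reads with 3676084 sense counts. Multimapping reads took 43.9% and 43.2% of the reads of replicates 1 and 2. Levels are given as CPM, a gene's sense counts scaled to a library total of 1000000 sense gene counts, and 3 counts, the limit that a count of 0 allows, correspond to 0.887 and 0.816 CPM. Intervals are 95% intervals (Wilson for shares and levels, exact Clopper-Pearson for ratios) and cover counting error only, since reads amplified without molecular identifiers are not independent molecules. Heart muscle markers were present in both libraries: Mir208a, Mir208b and Mir499 summed to 5624 CPM in replicate 1 and 4831 CPM in replicate 2. The liver microRNA gene Mir122 stood at 23.9 and 17.1 CPM.

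The family took 118462 counts in replicate 1, or 3.50% of the sense gene counts (3.48 to 3.52), and 74738 counts in replicate 2, or 2.03% (2.02 to 2.05). Its share was thus higher in replicate 1, and the mean was 2.77% ± 1.04 (SD, n = 2). Taken over all reads of a library, multimapping reads included, the family had 1.27% in replicate 1 and 0.708% in replicate 2. In bulk tissue, a larger number of cells that express a microRNA and more of it per cell cannot be told apart.

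Mir29a had 111799 counts in replicate 1, or 33041 CPM (32851 to 33232), and 70937 counts in replicate 2, or 19297 CPM (19157 to 19438). Its mean of 26169 ± 9718 CPM placed it at rank 14 of the 2202 genes, and it was at rank 11 in replicate 1 and rank 13 in replicate 2. Just above it stood Mir99a (27063 ± 6291 CPM) and Mirlet7d (26530 ± 2335 CPM). These are not resolved from Mir29a, since each mean lay within 1 SD of its own. Below it came Mir30d (15694 ± 2397 CPM) and Mir149 (15686 ± 4148 CPM), and here the gap to Mir29a exceeded 1 SD of any of the 3 genes. Mir29a was above both in each library.

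Mir29c had 6391 counts in replicate 1, or 1889 CPM (1843 to 1936), and 3560 counts in replicate 2, or 968 CPM (937 to 1001). It averaged 1429 ± 651 CPM at rank 56 and gave 5.08% ± 0.447 of the family's counts. Its level was like that of the nearest genes, among them Mir208a (1418 ± 241 CPM), encoded within the adult cardiac myosin gene Myh6. Mir28a (1492 ± 269 CPM) and Mir17 (1455 ± 344 CPM) stood just above it and Mir15a (1421 ± 1024 CPM) just below. All of these lay within 1 SD of Mir29c, so its place among them is not resolved.

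Mir29b-1 had 141 counts in replicate 1, or 41.7 CPM (35.3 to 49.1), and 145 counts in replicate 2, or 39.4 CPM (33.5 to 46.4). Mir29b-2 had 131 counts in replicate 1, or 38.7 CPM (32.6 to 45.9), and 96 counts in replicate 2, or 26.1 CPM (21.4 to 31.9). Both were well above the limit of 3 counts, and together they made up under 1% of the family's counts, with 0.157% ± 0.0530 from Mir29b-1 and 0.120% ± 0.0126 from Mir29b-2. Mir29b-1 averaged 40.6 ± 1.57 CPM at rank 176, next to Mir32 (41.2 ± 11.4 CPM) above and Mir92b (39.5 ± 20.3 CPM) below. Mir29b-2 averaged 32.4 ± 8.91 CPM at rank 191, next to Mir3068 (32.8 ± 2.52 CPM) above and Mir431 (31.7 ± 14.4 CPM) below. The genes 2 places away, Mir183 (42.6 ± 44.4 CPM) and Mir467c (39.2 ± 19.5 CPM) around Mir29b-1 and Mir182 (33.8 ± 39.5 CPM) and Mir1983 (31.6 ± 4.56 CPM) around Mir29b-2, also lay within 1 SD.

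**Figure D1:**
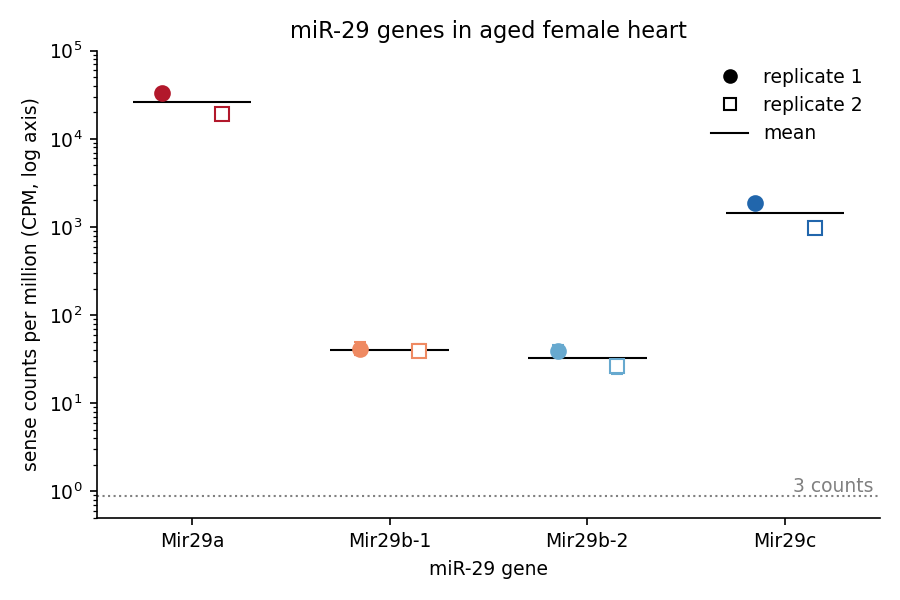
Level of each miR-29 gene in CPM on a log axis, with replicate 1 as a filled circle, replicate 2 as an open square, Wilson 95% intervals as bars and the mean as a line; the dotted line marks 3 counts in replicate 1. Mir29a lay at 33041 and 19297 CPM in replicates 1 and 2, while both miR-29b loci lay between 26.1 and 41.7 CPM.

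**Figure D2:**
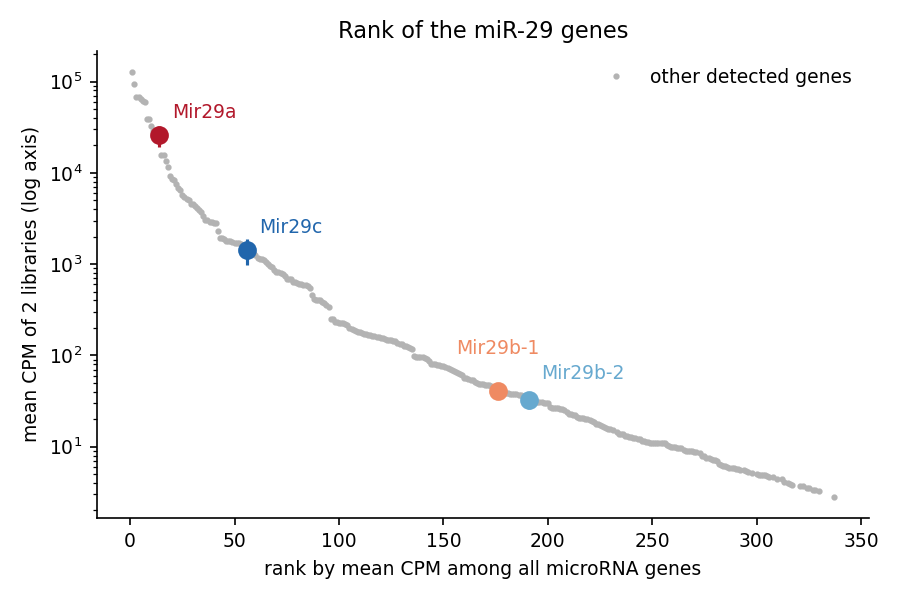
Mean CPM of the detected microRNA genes on a log axis against their rank by mean CPM among all 2202 genes, with the miR-29 genes in colour and vertical lines spanning the values of both libraries. Mir29a stood at rank 14 and Mir29c at rank 56, against rank 176 for Mir29b-1 and rank 191 for Mir29b-2.

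The order Mir29a, Mir29c, Mir29b-1, Mir29b-2 held in both libraries. Mir29a exceeded Mir29c, whose hairpin is equally long, by 17.5 times in replicate 1 (17.1 to 17.9) and 19.9 times in replicate 2 (19.3 to 20.6), a mean of 18.7 ± 1.72. The intervals do not overlap, so this ratio differed between the libraries by more than counting error. The lowest pair was not settled: Mir29b-1 over Mir29b-2 was 1.08 in replicate 1 (0.842 to 1.38) and 1.51 in replicate 2 (1.16 to 1.98). The interval of replicate 1 includes equal counts and that of replicate 2 does not, and their means differed by less than the SD of Mir29b-2. Per nucleotide of hairpin the mean ratio was 1.48.

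Within each cluster, 1 gene gave nearly all counts. Mir29a over Mir29b-1 was 793 in replicate 1 (672 to 942) and 489 in replicate 2 (416 to 580), with a mean of 641 ± 215, or 517 per nucleotide of hairpin. Mir29c over Mir29b-2 was 48.8 in replicate 1 (41.0 to 58.5) and 37.1 in replicate 2 (30.3 to 45.9), with a mean of 42.9 ± 8.28, or 39.5 per nucleotide. In each cluster the lower gene is the one whose 3p strand recurs at the other locus. The Mir29a/Mir29b-1 cluster as a whole exceeded the Mir29b-2/Mir29c cluster by 17.2 times in replicate 1 (16.7 to 17.6) and 19.4 times in replicate 2 (18.8 to 20.1). Summed levels were 26209 ± 9720 CPM on chromosome 6 and 1461 ± 660 CPM on chromosome 1.

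Other clusters give the scale of these gaps. Among detected genes there were 86 pairs of neighbours on the same strand at most 10000 nt apart, made of 133 genes, and the higher gene exceeded the lower by a median of 5.10 times in mean CPM. By this measure Mir29a over Mir29b-1, at 645 times, was the widest of the 86 pairs, ahead of Mir214 over Mir199a-2 at 321 times and Mirlet7d over Mirlet7f-1 at 105 times. Next came Mir27b over Mir24-1 at 80.3 times and Mir322 over Mir503 at 66.9 times. Mir29c over Mir29b-2, at 44.1 times, was the sixth widest. Except for Mir503, which has no listed mature sequence repeated, the lower gene of each pair named here has one that recurs at another locus. Reads that map to several places enter no gene count, and whether the ranks follow this was not tested. Pairs that share a gene are not independent, and these ranks are a description.

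**Figure D3:**
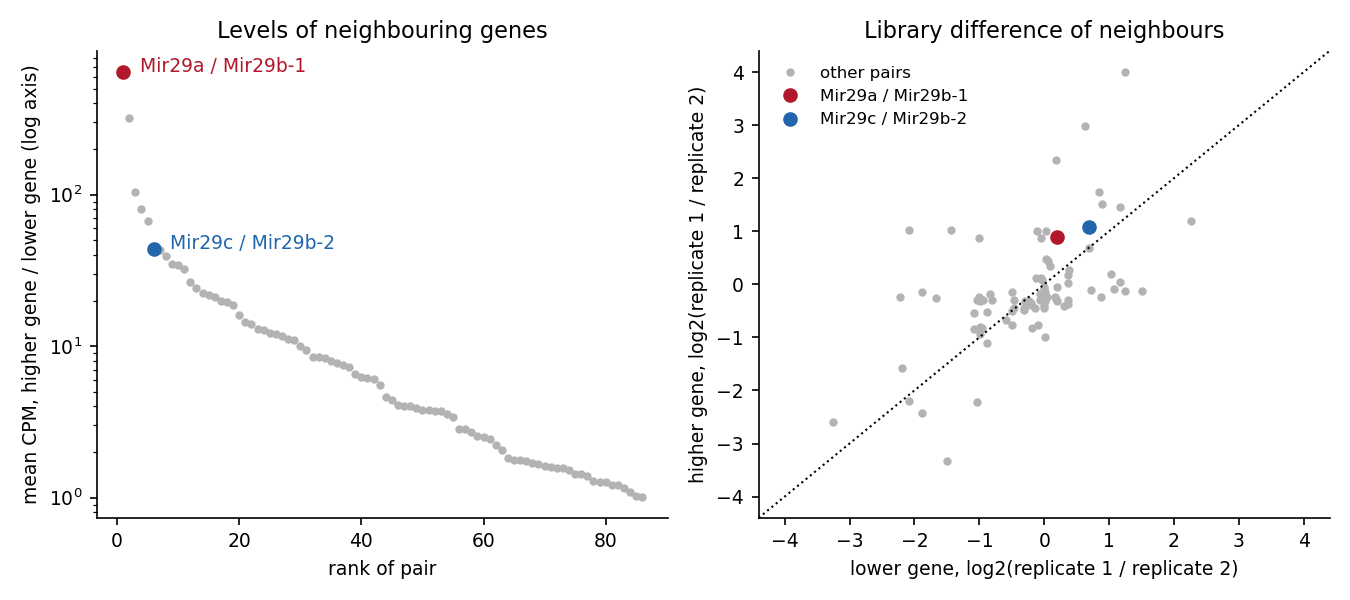
Left, ratio of mean CPM between the higher and the lower gene of each of 86 neighbouring pairs on a log axis, by rank; right, the log2 ratio of replicate 1 over replicate 2 of the higher gene against that of the lower gene, with the dotted line marking equal values. Mir29a over Mir29b-1 was the widest of these pairs of detected genes at 645 times, and both miR-29 pairs lay above the dotted line.

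Repeated mature sequences were also looked at over all genes, since multimapping reads are left out of the counts. Of the 316 detected genes, 283 have mature sequences in the RefSeq table. The classes rest on the mature sequences listed there, and a sequence not listed for a locus is missed. The 241 genes with no listed mature sequence repeated at another locus, which include Mir29a and Mir29c, had a median of 65.8 CPM. The 37 genes with some but not all of them repeated, which include Mir29b-1 and Mir29b-2, had a median of 57.2 CPM. Which of these medians is higher changed with the filter, the strand column and the library. Of the 241 genes 54 reached 1000 CPM, against 3 of the 37, a difference that was not tested. So did 8 of the 33 genes with no mature sequence listed, which could belong to any class. Both miR-29b loci lay below the median of the 37 genes, 15 of which were below Mir29b-1. The 5 detected genes with every mature sequence repeated had a median of 13.6 CPM.

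Other pairs that share a mature sequence ranged widely in their ratio. Mirlet7f-2 over Mirlet7f-1, at 7622 and 254 CPM, gave 30.0, and Mir181b-2 over Mir181b-1, at 818 and 7.33 CPM, gave 112. Mir92-1 over Mir92-2 (14.1), Mir128-1 over Mir128-2 (12.4), Mir16-1 over Mir16-2 (4.43), Mir30c-2 over Mir30c-1 (2.81), Mir125b-1 over Mir125b-2 (2.05) and Mir24-2 over Mir24-1 (1.96) lay below both. Mirlet7c-2 exceeded Mirlet7c-1 by 3.12 times and Mirlet7a-1 by 2.08 times, and Mir374b stood at 122 CPM while Mir374c had 0 counts. Mir29b-1 over Mir29b-2, at 1.29 ± 0.307 as the mean over both libraries, lay below the ratios named here. The miR-29b genes were fainter than 100 CPM, the level that the higher gene of each of these pairs reached, and fainter pairs were not listed.

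The libraries differed in 3 of the 4 family members. Each gene's sense counts in replicates 1 and 2 were compared by an exact binomial test, two-sided and with library sizes scaled by TMM, with Benjamini-Hochberg adjustment over all 316 detected genes at 0.05. The test sets these libraries against counting noise and does not compare conditions. It called 60.4% of the detected genes in either direction and 27.2% higher in replicate 1, so a call by itself is common here. Of the 4 members, 3 were called higher in replicate 1, 0 were called higher in replicate 2, and 1 was not called. DESeq2 size factors, which called 94 genes higher and 93 lower in replicate 1, and library totals, which called 70 higher and 128 lower, gave other balances than the 86 higher and 105 lower of TMM. The calls of the members were the same under both.

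Mir29a was higher in replicate 1 by 1.87-fold (log2 ratio 0.90, interval 0.89 to 0.91; exact binomial test, adjusted p under 1e-300). Mir29c was higher in replicate 1 by 2.13-fold (log2 ratio 1.09, interval 1.03 to 1.15; exact binomial test, adjusted p = 1.46e-297). Its log2 ratio lay above that of Mir29a, with intervals that do not overlap. Mir29b-2 was higher in replicate 1 by 1.62-fold (log2 ratio 0.69, interval 0.30 to 1.09; exact binomial test, adjusted p = 0.000826). Mir29b-1 had a log2 ratio of 0.20 with an interval of -0.14 to 0.55 and was not called (exact binomial test, adjusted p = 0.322), so at 141 and 145 counts it was not told apart from no difference or from one of up to 1.46-fold.

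Set against all detected genes, the members lay towards the side of replicate 1. The median log2 ratio of the members was 0.80, against -0.05 for all detected genes, whose quartiles were -0.41 and 0.47. The absolute log2 ratio of Mir29a was larger than that of 73.4% of the detected genes, that of Mir29c than 81.6%, that of Mir29b-2 than 65.2% and that of Mir29b-1 than 26.9%. Of the 66 genes at 1000 CPM or more, 9 had a higher log2 ratio than Mir29a, and 7 a higher one than Mir29c. At 2-fold or more, 35 of the 316 genes were called higher in replicate 1, among them Mir29c but not the other 3 members. With library totals the log2 ratio of Mir29c was 0.96, under 2-fold.

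**Figure D4:**
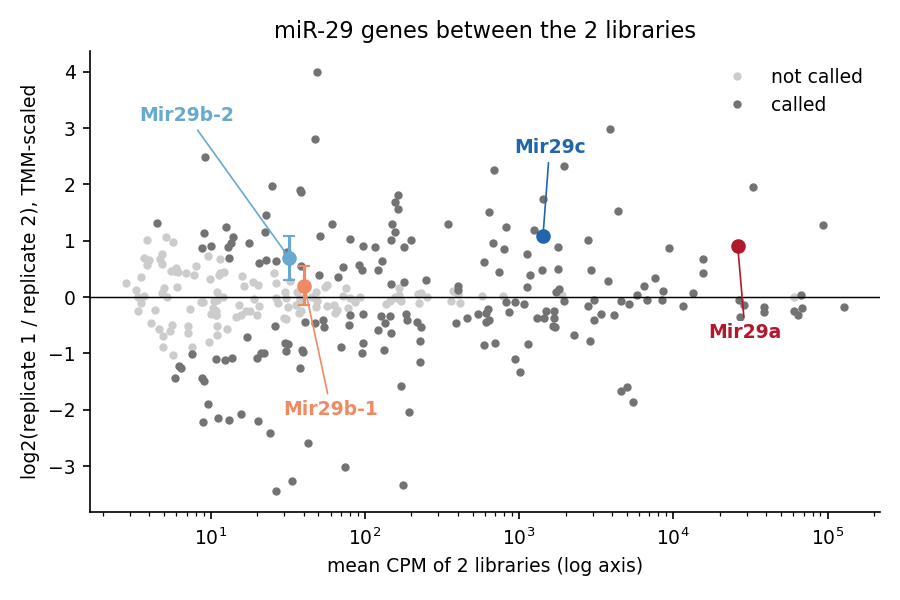
TMM-scaled log2 ratio of replicate 1 over replicate 2 for each of 316 detected genes against mean CPM on a log axis, with called genes in dark grey, genes not called in light grey and the miR-29 genes in colour with exact 95% intervals. Mir29a (0.90), Mir29c (1.09) and Mir29b-2 (0.69) lay above 0 with their intervals, and the interval of Mir29b-1 crossed 0.

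Mir29a and Mir29b-1 differed in their log2 ratios between libraries by more than counting error, with intervals that do not overlap. Their log2 ratios were 0.70 apart, against a median of 0.46 over the 86 neighbouring pairs. Those of Mir29c and Mir29b-2 were 0.40 apart, and their intervals overlap. Among genes at 1000 CPM or more, those closest to Mir29a in log2 ratio were Mir423 (0.89), Mir125a (0.88), Mir92-1 (1.01), Mir486 (0.76) and Mir29c (1.09). Closest to Mir29c were Mir92-1, Mir451a (1.20), Mir29a, Mir126a (1.28) and Mir423. Likeness here rests on 2 libraries only, so any gene with a like ratio would be listed. Mir486 and Mir451a are known from red blood cells and Mir126a from endothelium.

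Markers of several cell types differed between the libraries as well, as did 60.4% of all detected genes, called in either direction. Summed over each list, endothelium (Mir126a alone) stood at 129043 CPM in replicate 1 and 57714 CPM in replicate 2, and red blood cells (3 of 3 genes called higher in replicate 1) at 4182 and 1938 CPM. Heart muscle (3 of 3 called higher in replicate 1) differed less in sum, at 5624 and 4831 CPM. Most of this sum was Mir499, and the fainter Mir208b differed more, at 59.1 and 17.1 CPM (log2 ratio 1.91). The fibroblast and stroma list was nearly level at 6020 and 6025 CPM, with 2 of 7 genes called higher in each direction and Mir199a-1 at 0 in both libraries. Lower in replicate 1 were white blood cells (4 of 4 called), at 7315 and 14264 CPM, and smooth muscle (2 of 2 called), at 35639 and 50822 CPM. Epithelium was lower there too (6 of 8 called, with Mir205 not tested), at 216 and 857 CPM. Abundant genes were called at small differences, as Mir155 was at a log2 ratio of -0.07. Whether the cell makeup of the tissue pieces had a part in the differences of the miR-29 genes was not tested.

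Other microRNAs known from cardiac fibrosis and remodelling place the family among its peers. Of a list of 30 such genes, 23 were detected, with a median log2 ratio of 0.20. Of these, 13 were called higher in replicate 1, 4 higher in replicate 2 and 6 not called. Over all detected genes, 27.2% were called higher in replicate 1 and 60.4% in either direction. The list was chosen with earlier results of these data known, so these counts are a description. Mir29a was exceeded in mean level by 2 of the 30, Mir22 (32956 ± 26062 CPM), a regulator of heart muscle growth, and Mir26b (28864 ± 3735 CPM). Mir22 lay far apart in the libraries, so its place above Mir29a is not resolved, and Mir26b lay within 1 SD of Mir29a. Mir29c was exceeded by 4 more: Mir155 (4574 ± 435 CPM), known from immune cells, Mir34a (2923 ± 508 CPM), known from ageing heart, Mir21a (2879 ± 1241 CPM) and Mir214 (1956 ± 1783 CPM). The place of Mir214 is not resolved, since in replicate 2 it stood at 695 CPM, below Mir29c at 968 CPM.

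Mir21a, known for raising growth signalling in cardiac fibroblasts, ran opposite to Mir29a and Mir29c. It stood at 2002 CPM in replicate 1 and 3756 CPM in replicate 2 (log2 ratio -0.78; exact binomial test, adjusted p under 1e-300). Mir214, also known from fibroblasts, ran the same way as they did and further, at 3217 CPM in replicate 1 and 695 CPM in replicate 2 (log2 ratio 2.33; exact binomial test, adjusted p under 1e-300). Fibrosis microRNAs thus did not share a direction.

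The remaining detected members ranged from Mir208a at 1418 CPM down to Mir133b at 4.89 CPM. Mir30c-2 (1123 ± 30.1 CPM), known for targeting connective tissue growth factor, was close between libraries with a log2 ratio of 0.18. Mir125b-1 (log2 ratio 1.31), Mir24-2 (1.16), Mir24-1 (1.03), Mir26a-2 (1.30) and Mir101b (0.64) were called higher in replicate 1. So were Mir18 (0.36), Mir30c-1 (0.20) and Mir132 (0.12), at smaller log2 ratios. Mir26a-1 was called higher in replicate 2, at a mean of 26.7 CPM (log2 ratio -3.45). Mir125b-2 (0.04), Mir101a (0.21), Mir212 (-0.13), Mir199b (-0.79), Mir199a-2 (0.18) and Mir133b (-0.88) were not called. The 7 that were not detected were Mir133a-1, Mir133a-2, Mir19a, Mir19b-1, Mir19b-2, Mir199a-1 and Mir101c, the last 3 at 0 counts in both libraries. Several of these loci share mature sequences, so a low count at a locus is no measure of the mature strand.

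The targets of the family were looked at in sequence only, since no messenger RNA was measured. The search was for TGGTGCT, the reverse complement of bases 2 to 8, on the messenger strand of the longest annotated 3′ UTR of each gene. In a list of 28 known miR-29 targets and matrix genes, 26 held at least 1 match, or 92.9%, against 13.2% of all 20936 genes and 15.6% of 6228 genes with a UTR of like length (1055 to 2592 nt). The list was chosen for known targeting, so this share is no finding about it. Matches numbered 0.936 per 1000 nt of UTR in the list and 0.106 over all genes.

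Of the 8 collagen genes of the list 7 held a match, with 4 in Col5a1 and 3 in Col5a3, while Col1a2 and the matrix protein gene Sparc held none. Tet3 (8 matches), Tet1 (7) and Tet2 (5), which encode enzymes that oxidise methylated cytosine, and Dnmt3a (5), a DNA methyltransferase, held the most matches in UTRs of 5669, 7962, 3058 and 6696 nt. Per 1000 nt of UTR, Col5a3 (3.82), Eln (2.53), Col4a2 (2.06) and Fbn1 (2.02) were ahead of Tet2 (1.64), Tet3 (1.41), Tet1 (0.879) and Dnmt3a (0.747). Examples from matrix genes are given on the messenger strand of GRCm38 (GENCODE M21), with the match in capitals. They show the bases that the shared seed would pair with in messages of type I collagen, type III collagen, fibrillin and elastin.
Col1a1 (chr11:94952524-94952545, plus strand): tgggaaggaatttcTGGTGCTa
Col3a1 (chr1:45348968-45348989, plus strand): tcaaaatgtctcaaTGGTGCTa
Fbn1 (chr2:125301173-125301194, minus strand): ttctgttgtctgttTGGTGCTa
Eln (chr5:134703736-134703757, minus strand): gacctcatcaacgtTGGTGCTa
Each of these matches is followed by an A. In the list of 28, 20 genes held such an 8-base match, against 2.87% of all genes. A match is a run of letters and not a measured site.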

How the data were processed

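Total RNA was the source, and the library protocol was a multiplexed one for microRNAs, per the labels. For each library the authors deposited raw counts of reads per hairpin gene in either-strand, sense and antisense columns, on mm10 and GENCODE M21, per the deposited readme text. No aligner or counter is named in the sources used here. A hybrid's CAST/EiJ alleles that differ from mm10 may lower a count, which was not tested.

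Sense counts were used. The 4 rows for unmapped (14.9% and 16.2% of the reads of replicates 1 and 2), multimapping (43.9% and 43.2%), featureless (5.07% and 5.75%) and ambiguous reads (0%) stayed out of library sizes. CPM was computed on sense gene totals. Genes with 10 or more counts in each library were tested with exact binomial tests on effective sizes from edgeR 4.0.16 (TMM); the alternative size factors were from DESeq2 1.42.0. Tables were handled in Python 3.11.15 (scipy 1.17.1, pandas 2.3.3, numpy 2.4.6), figures drawn with matplotlib 3.10.9, and edgeR run in R 4.3.3. The test was checked on counts simulated with counting noise only, so the check does not cover other spread between libraries. Named genes are the members, the 2 genes above and below each in mean CPM, the 5 genes closest in log2 ratio, the fibrosis list, and the pairs that share a mature sequence; the widest neighbouring pairs and the marker genes were named besides. The members and lists were chosen with earlier results of these data known.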

Additional observations from a re-analysis of the deposited data

How the results depend on the processing

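Per 1000000 reads of any kind in a library, means were 9333 for Mir29a, 510 for Mir29c, 14.4 for Mir29b-1 and 11.5 for Mir29b-2, and the family share was 0.987%. With reads on either strand, whose gene totals are smaller, Mir29b-1 had 54.4 CPM and Mir29b-2 had 43.6 CPM. The 4 members kept their direction and their side of 0.05 with DESeq2 size factors, library totals, either strand and no filter on low counts. Over these alternatives the log2 ratio ranged over 0.78 to 0.95 for Mir29a, 0.96 to 1.14 for Mir29c, 0.57 to 0.75 for Mir29b-2 (exact binomial test, adjusted p 0.000294 to 0.0063) and 0.08 to 0.26 for Mir29b-1 (0.203 to 0.73). Library totals shifted the median log2 ratio of all genes by -0.12 against TMM. Without the filter, medians by repeated mature sequence were 0.27 CPM (none repeated), 12.6 CPM (some) and 0 CPM (all). With either strand they were 67.7 CPM (none), 71.0 CPM (some) and 13.0 CPM (all). Counting any repeat with the last class gave 52.1 CPM. Leaving out replicate 2 gave 57.6 CPM (none), 67.1 CPM (some) and 13.3 CPM (all), and leaving out replicate 1 gave 71.5, 55.5 and 12.8 CPM. The class with some repeated was thus above that with none without the filter, with either strand and without replicate 2, and below it without replicate 1. In the shortest 3′ UTRs 17 of the 28 listed target and matrix genes held a match, against 8.12% of all genes. The log2 ratio of Mir29c passed 2-fold except with library totals. Pairs at most 2000 nt apart, a limit added after the data were seen, numbered 64 with a median ratio of 7.40. The causes of these shifts were not tested. Mir29b-1 and Mir29b-2 rest on 96 to 145 counts, which limits their ratios. No paired analysis was possible because the series holds 1 group.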
